A study of Homo sapiens with 8 samples.

Results

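ZBTB is short for zinc finger and BTB domain containing, and the genes with this symbol encode regulators of transcription. They were taken as every gene of the expression table whose symbol begins with ZBTB and a digit, which gave 42 of 18664 genes and 268 of 84798 transcripts. ZBTB8OS is among the 42 by its symbol alone, since it is named for lying opposite ZBTB8A and encodes archease, a helper of tRNA ligation without a BTB domain. The other 41 are BTB zinc finger genes.

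RNA-seq had been run on samples labelled HT29, an established human colon cancer line. The aim was to find genes that respond to loss of ALDH1A1, a cytosolic aldehyde dehydrogenase, and ZBTB7B is the family member that the study followed. The 8 libraries were of 4 shALDH1A1 samples, labelled as ALDH1A1 knockdown, and 4 CTRL samples, all from cells in 10% FBS. According to the study's methods, hairpins were brought in by lentiviral vectors to make stable lines, and which of the human hairpins was sequenced is not given in the sources used here. The CTRL samples carry the name shControl in their titles and WT as genotype, and the design text calls them parental, so whether they held a hairpin could not be settled. No source says that the 4 samples of a group came from separate cultures, so p-values measure only the spread between these libraries, which may be technical.

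Through the BTB domain these proteins pair with each other and bind corepressors such as NCOR and BCOR, or the ubiquitin ligase scaffold CUL3, while the zinc fingers choose the DNA site. Most characterized members repress transcription, and many are known from blood cell development. In mice, Zbtb7b (ThPOK) commits T cells to the CD4 lineage, Zbtb16 (PLZF) directs innate-like T cells, and Zbtb46 marks classical dendritic cells. In epithelial tumors the members are mainly studied as repressors or partners of other factors, such as ZBTB17 (MIZ1), which binds MYC.

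Libraries held 536575 to 1908803 gene counts in shALDH1A1 and 291260 to 4137111 in CTRL, and CTRL replicate 2 was the shallowest of all. ALDH1A1 itself had 3, 1, 1 and 0 counts in shALDH1A1 and 1858, 83, 1870 and 1000 in CTRL, here and below in the order of replicates 1 to 4. The share of counts on genes whose transcripts match the Alu repeat was 73.4 to 79.4% in shALDH1A1 and 9.05 to 15.6% in CTRL replicates 1, 3 and 4, whereas CTRL replicate 2 stood apart from its group at 64.4%. The 15 markers of colon epithelium, the labelled cell type, took 0.00293 to 0.0176% of counts in shALDH1A1 and 0.0175 to 0.144% in CTRL. Of the 15, 1 had 0 counts in every CTRL library (CDX2, with 0, 0, 0 and 3 in shALDH1A1) and 1 in every shALDH1A1 library (CDX1). Markers of stomach epithelium, 16 of which were measured, took 0.00194 to 0.0387% in shALDH1A1 and 3.3 to 38.7% in CTRL. Stomach is not the labelled tissue, and where this RNA came from was not tested. The 13 T cell markers took 0.00334 to 0.00757% in shALDH1A1, with 6 at 0 in every library, and 0.00546 to 0.02% in CTRL. For B and plasma cells (7 markers) the ranges were 0.000288 to 0.00173% and 0.0501 to 0.178%, for fibroblasts and smooth muscle (10) 0.000786 to 0.0366% and 0.0786 to 2.72%, and for myeloid cells (8) 0.0834 to 0.116% and 0.0153 to 0.0576%. The myeloid share in shALDH1A1 was nearly all LYZ, with 1703, 1590, 1679 and 448 counts against 578, 156, 781 and 134 in CTRL. Each other myeloid marker had at most 15 counts in a shALDH1A1 library, and 4 to 201 in CTRL replicates 1, 3 and 4. Most of the T cell share in shALDH1A1 was CD3G and ZAP70. CD3G had 46, 11, 16 and 25 counts against 1, 11, 18 and 0 in CTRL, and ZAP70 38, 31, 32 and 12 against 18, 12, 94 and 0. Each other T cell marker had at most 4 counts in a shALDH1A1 library. The part of these differences in the results on ZBTB genes was not tested, and fewer cells of a type cannot be told apart from less RNA per cell in bulk libraries.

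Library scaling decides the sign of many values, so fold changes of members are given on 2 scales. With TMM factors, edgeR's default, the 7971 tested genes had a median of -1.44 (log2 fold change, shALDH1A1 over CTRL). On the second scale, each library was sized by the summed counts of 30 reference genes that every cell uses, and this median was 1.80. The summed share of the reference genes was 0.0264 to 0.158% in shALDH1A1 and 1.07 to 4.58% in CTRL. A change was called at an adjusted p under 0.05 in edgeR's quasi-likelihood test.

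Of the 42 members, 27 had enough counts for the test and 15 did not. A gene could pass the count filter through either group alone. With TMM factors, 7 of the 27 fell in shALDH1A1 (25.9%, where 33% of all tested genes fell) and 0 rose (2.6% of all tested genes rose). On the reference gene scale, by contrast, 1 fell and 13 rose (5.44 and 40.9% of all tested genes). Beside the count of 0 risen members, 2 were higher at an unadjusted p under 0.05 with edgeR (7.46% of all tested genes), 6 rose with DESeq2 (9.71%) and 6 with limma (9.12%). The members that fell with TMM factors were ZBTB7B, ZBTB17, ZBTB4, ZBTB33, ZBTB22, ZBTB38 and ZBTB1, and of these ZBTB7B also fell on the reference gene scale. These 7 passed the count filter through CTRL alone, the group where they are high. A fall on both scales was not particular to ZBTB7B. VCP, itself 1 of the 30 reference genes, had -5.97 (edgeR adjusted p = 0.00119) with TMM factors and -3.34 (adjusted p = 0.0323) on the reference gene scale. Without CTRL replicate 2, 11 of 32 members fell (60.4% of all tested genes) and 7 rose (17.3%), and without shALDH1A1 replicate 4, 2 of 30 members fell (23.9%), ZBTB7B and ZBTB17. At the thresholds that the study's methods state, an adjusted p under 0.001 and an absolute log2 fold change over 1, 0 members fell (4.89% of all tested genes) and 0 rose (0.0125%). The legend of the study's volcano plot gives a P under 0.05 instead, so ZBTB7B may not have been picked at the stricter threshold. The median log2 fold change over the tested members was -0.81 with TMM factors and 2.89 on the reference gene scale, each above the median of all tested genes on that scale.

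**Figure D1:**
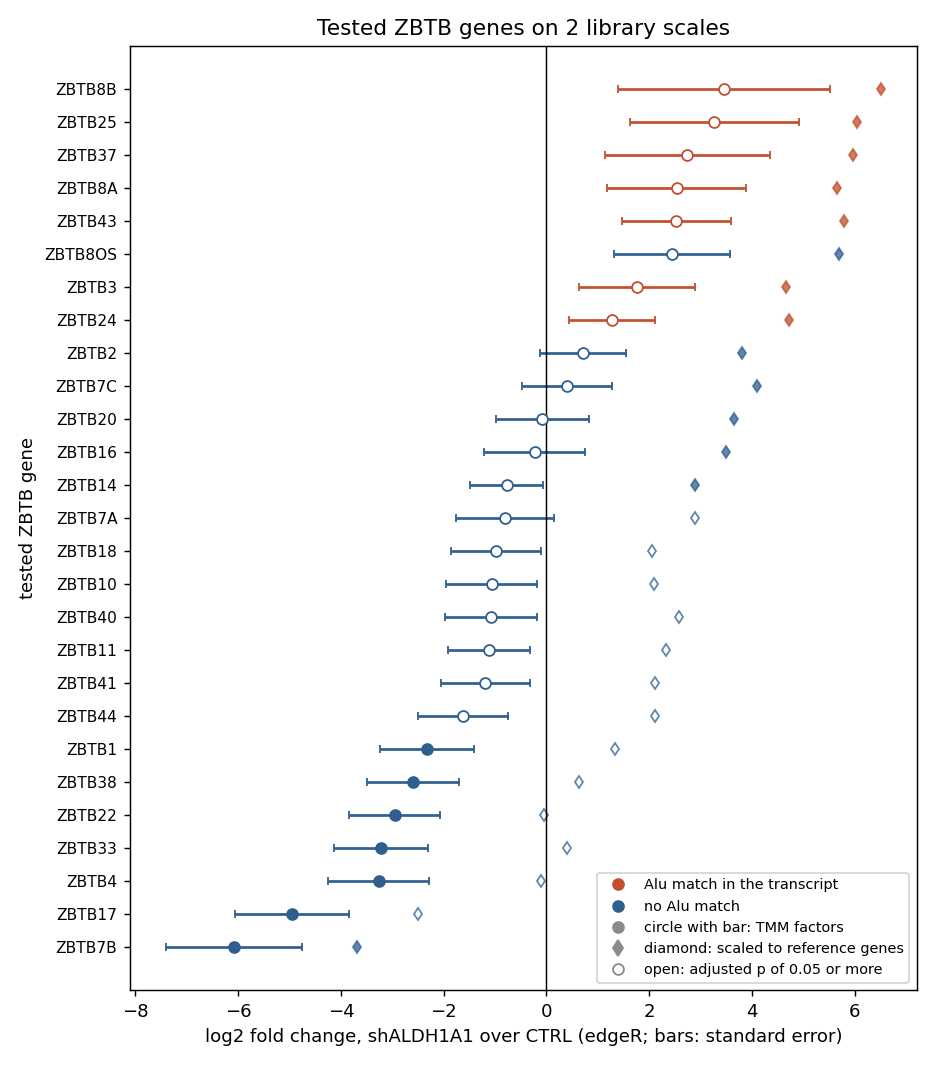
Log2 fold change (x axis, shALDH1A1 over CTRL, 4 libraries each) of the 27 tested ZBTB genes (y axis) with TMM factors (circles, bars are standard errors) and scaled to reference genes (diamonds, drawn without bars); filled symbols have an adjusted p under 0.05 and orange marks genes with an Alu match. The 7 filled circles lie between -6.09 and -2.33, and the only filled diamond below 0 is ZBTB7B at -3.69.

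ZBTB7B was close to absent from the shALDH1A1 libraries and among the most abundant members in CTRL. It held 68, 3, 322 and 70 counts in CTRL, but 0, 0, 1 and 0 in shALDH1A1. The groups did not overlap, although CTRL replicate 2 lay above shALDH1A1 with 3 counts. Its level was 0.185 ± 0.370 TPM (a share of the library corrected for transcript length, SD, n = 4) in shALDH1A1 and 15.3 ± 10.4 TPM (SD, n = 4) in CTRL. By TPM it ranked 6, 15, 1 and 2 among the 42 members in CTRL replicates 1, 2, 3 and 4. ZBTB7B fell by 6.09 on the log2 scale (standard error 1.32, edgeR adjusted p = 0.00116) with TMM factors and by 3.69 (adjusted p = 0.0297) on the reference gene scale. Since shALDH1A1 held 1 count in all, the ratio of CTRL to shALDH1A1 has a wide counting interval, 106 (95% exact interval 18.9 to 4183) with TMM factors and 12.7 (2.27 to 504) on the reference gene scale. Amplified reads that carry no molecular identifier need not stem from separate molecules, so all intervals and floors here cover counting error only. Leaving out any 1 library kept the call, with log2 fold changes of -9.00 to -5.36 and adjusted p of 3.09e-05 to 0.0170. ZBTB7B had the lowest fold change and the smallest p of the 27 members, and 4.98% of all tested genes had a fold change as low or lower. The study had picked ZBTB7B from genes with reduced expression in this same comparison, so its rank here is not independent of that choice.

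ZBTB7B lies on the plus strand of chromosome 1 (154975106 to 154990999, GRCh37), and the table gives it 12 transcripts. It overlaps DCST2 on the opposite strand, and the sources used here do not state that the counting used strand. Reads from the stretch that these 2 genes share can therefore not be told apart. Its RefSeq promoter is shown because ZBTB7B carries the lowest fold change of the family, and that of ZBTB8B because it is the most abundant member in shALDH1A1. Both windows run from 250 bases before to 50 bases after the start on GRCh38.p14, at chr1:155002399-155002698 and chr1:32464822-32465121, both on the plus strand. Capitals mark the GC box letters GGGCGG or, on the other strand, CCGCCC.
ZBTB7B: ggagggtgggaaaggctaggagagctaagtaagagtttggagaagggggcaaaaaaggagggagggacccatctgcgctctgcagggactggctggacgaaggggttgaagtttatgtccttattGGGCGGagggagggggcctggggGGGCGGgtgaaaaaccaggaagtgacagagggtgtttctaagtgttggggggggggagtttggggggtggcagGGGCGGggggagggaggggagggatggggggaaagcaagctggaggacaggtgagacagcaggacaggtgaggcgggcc
ZBTB8B: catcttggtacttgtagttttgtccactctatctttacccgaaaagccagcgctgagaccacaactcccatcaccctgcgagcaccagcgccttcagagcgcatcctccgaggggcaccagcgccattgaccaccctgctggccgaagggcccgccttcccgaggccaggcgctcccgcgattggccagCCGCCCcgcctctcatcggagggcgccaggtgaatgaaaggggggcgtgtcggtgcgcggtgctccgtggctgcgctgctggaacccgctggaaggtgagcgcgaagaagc
The ZBTB7B window holds 3 GC boxes and 6 CpG, the ZBTB8B window 1 GC box and 26 CpG. Of the 42 members 36 matched a RefSeq promoter by symbol, and 26 of these 36 hold at least 1 GC box, against 44.6% of all 27305 promoters of the same length. The letters TATAAA, searched on both strands, occur in 0 of the 36 windows and in 12% of all promoters. The median number of CpG was 25 over the members and 14 over all promoters. A match describes the letters in the window and not a bound site.

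ZBTB7A and ZBTB7C, the paralogs closest to ZBTB7B, did not pass the test with TMM factors. ZBTB7A (LRF), a repressor of fetal globin genes, had 28, 7, 24 and 42 counts in shALDH1A1 and 203, 30, 438 and 51 in CTRL. ZBTB7C had 8, 15, 8 and 41 counts in shALDH1A1 and 36, 5, 191 and 36 in CTRL. Both were detected in all 8 libraries, and once scaled to library size their groups overlapped. ZBTB7A stood at 20.2 ± 24.9 TPM in shALDH1A1 and 23.9 ± 17.9 TPM in CTRL (SD, n = 4). The fold changes of ZBTB7A were -0.81 (standard error 0.96, adjusted p = 0.480) with TMM factors and 2.89 (adjusted p = 0.0612) on the reference gene scale. ZBTB7C had 0.41 (standard error 0.87, adjusted p = 0.703) with TMM factors, and on the reference gene scale it rose by 4.11 (adjusted p = 0.0161).

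Ratios within a library do not move with the library scaling, and those of ZBTB7B to both paralogs did not overlap between groups. In shALDH1A1 replicates 1, 2 and 4, where ZBTB7B had 0 counts, their size rests on the amount added to each count and on the paralog's counts. The log2 ratio of ZBTB7B to ZBTB7A counts, with 0.5 added to each, was -5.83, -3.91, -4.03 and -6.41 in shALDH1A1 and -1.57, -3.12, -0.44 and 0.45 in CTRL. All 4 shALDH1A1 values lay below all 4 CTRL values, and the groups were closest between shALDH1A1 replicate 2 and CTRL replicate 2. The mean difference was -3.87 (two-sided exact permutation p = 0.0286, as small as 4 libraries against 4 can give). With 1 added to each count in place of 0.5, it was -3.10 (exact permutation p = 0.0286). The ratio to ZBTB7C fell by 4.97 (exact p = 0.0286), and the ratio of ZBTB7A to ZBTB7C differed by -1.10 (exact p = 0.257). Over the 11 single ratios and shares tested in this way, Benjamini-Hochberg adjustment gives 0.0524 for each p of 0.0286, 0.0629 for each p of 0.0571 and 0.257 for the last.

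**Figure D2:**
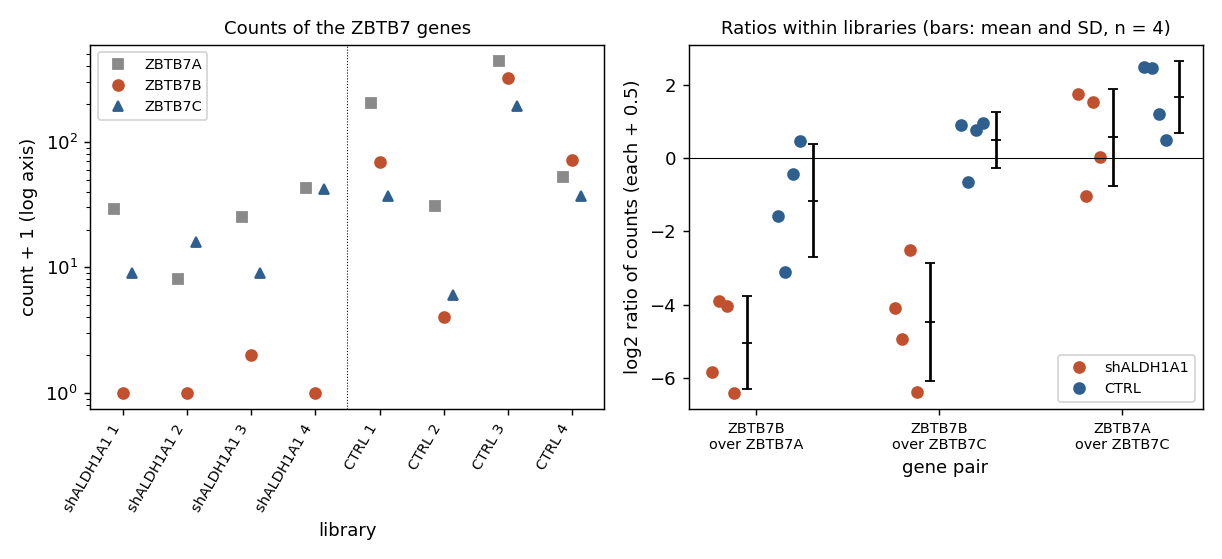
Left, counts plus 1 on a log axis (y) of the 3 ZBTB7 genes in each of 8 libraries (x); right, log2 ratios of counts within libraries (y) for 3 gene pairs (x), with 4 points a group and bars for mean and SD. ZBTB7B counts are 0, 0, 1 and 0 in shALDH1A1, and its ratios to ZBTB7A and ZBTB7C do not overlap between groups, while the ratios of ZBTB7A to ZBTB7C do.

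The same ratio was taken against every other member. ZBTB7B to member ratios were lower in shALDH1A1 without overlap for 29 of 41 members, higher for 0, and overlapped for 12. Against all genes with at least 10 counts this held for 51.6% of 14923, so 29 of 41 is to be read against that share. Among the 29 are ZBTB9, ZBTB12, ZBTB32, ZBTB39 and ZBTB49, which had 0 counts in every shALDH1A1 library. Where ZBTB7B had 0 counts too, their ratio rests on the amount added to each count alone. For these members the ratio therefore cannot show whether ZBTB7B fell further than they did. Each of the 29 pairs had an exact permutation p of 0.0286. Among the 12 that overlapped were ZBTB17, ZBTB1, ZBTB4, ZBTB22 and ZBTB33, which also fell with TMM factors, and the ratio of ZBTB7B to ZBTB17 differed by -1.07 (exact p = 0.286). Of the members that fell, ZBTB38 is the one against which ZBTB7B was lower without overlap, with a difference of -2.38 on the log2 scale.

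ZBTB17, the MYC partner MIZ1, had the second lowest fold change. It had 0, 1, 0 and 0 counts in shALDH1A1 and 49, 3, 141 and 11 in CTRL. As for ZBTB7B, a lone read stood in shALDH1A1 and every CTRL library lay above. ZBTB17 fell by 4.95 on the log2 scale (standard error 1.12, adjusted p = 0.00156) with TMM factors, a call kept in each of the 8 fits without 1 library, and had -2.51 (adjusted p = 0.121) on the reference gene scale. By the counting interval, CTRL exceeded shALDH1A1 by a factor of 46.6 (8.26 to 1848) with TMM factors and of 5.61 (0.996 to 223) on the reference gene scale, where the interval reaches below 1.

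ZBTB33 (Kaiso), ZBTB4 and ZBTB38 form the group that binds methylated CpG, and all 3 fell with TMM factors, where 33% of all tested genes fell. None of the 3 was called on the reference gene scale (5.44% of all tested genes fell and 40.9% rose). ZBTB4 had 3, 3, 4 and 2 counts in shALDH1A1 and 266, 6, 323 and 87 in CTRL. ZBTB33 had 3, 1, 0 and 1 counts in shALDH1A1 and 45, 3, 65 and 57 in CTRL. ZBTB38 had 3, 2, 3 and 2 counts in shALDH1A1 and 111, 3, 189 and 41 in CTRL. The groups did not overlap for any of the 3 after scaling with TMM factors. The fold change of ZBTB4 was -3.26 (standard error 0.99, adjusted p = 0.0126) with TMM factors and -0.11 (adjusted p = 0.942) on the reference gene scale. For ZBTB33 it was -3.22 (standard error 0.91, adjusted p = 0.00813) with TMM factors and 0.40 (adjusted p = 0.794) on the reference gene scale. For ZBTB38 it was -2.59 (standard error 0.90, adjusted p = 0.0270) and 0.63 (adjusted p = 0.640), so ZBTB33 and ZBTB38 turned direction between the scales. Without shALDH1A1 replicate 4, ZBTB4 and ZBTB33 had adjusted p of 0.0660 and 0.0599 in edgeR, and ZBTB38 lost its call without shALDH1A1 replicate 1, 2 or 4 or CTRL replicate 1 or 3 (adjusted p up to 0.126).

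The other members listed as methyl-CpG or promoter binding repressors did not pass the test with TMM factors. ZBTB2 had 10, 16, 5 and 1 counts in shALDH1A1 and 23, 3, 38 and 20 in CTRL. ZBTB18 (RP58), a repressor in developing cortex, had 0, 5, 5 and 8 counts in shALDH1A1 and 35, 2, 149 and 29 in CTRL. ZBTB14 had 3, 1, 2 and 7 counts in shALDH1A1 and 28, 3, 64 and 8 in CTRL. All 3 overlapped between groups, with fold changes of 0.71, -0.99 and -0.78 with TMM factors and of 3.80, 2.05 and 2.89 on the reference gene scale, where ZBTB2 (adjusted p = 0.0141) and ZBTB14 (adjusted p = 0.0321) rose. ZBTB5, the remaining gene of this list, had 1 count in shALDH1A1 and 69 in CTRL and was not tested.

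Among the members listed as regulators of lymphoid and myeloid cells, 2 of 6 tested fell with TMM factors, ZBTB17 and ZBTB1 (33.3%, against 33% of all tested genes). On the reference gene scale 0 fell and 4 rose (5.44 and 40.9% of all tested genes). ZBTB1, needed for lymphocyte development in mice, had 7, 3, 0 and 0 counts in shALDH1A1 and 46, 2, 161 and 37 in CTRL. Its fold change was -2.33 (standard error 0.92, adjusted p = 0.0481) with TMM factors and 1.34 (adjusted p = 0.345) on the reference gene scale. ZBTB1 was called in 1 of 8 fits without 1 library, the one without CTRL replicate 2 (adjusted p = 0.00819), and reached an adjusted p of up to 0.199 in the others.

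ZBTB16 had 6, 31, 13 and 32 counts in shALDH1A1 and 326, 7, 28 and 90 in CTRL. ZBTB20, a repressor of fetal liver genes in mice, had 13, 19, 13 and 48 counts in shALDH1A1 and 158, 9, 295 and 45 in CTRL. ZBTB24, whose loss causes an immunodeficiency with unstable centromeres, had 22, 8, 15 and 4 counts in shALDH1A1 and 28, 2, 66 and 11 in CTRL. None of the 3 separated the groups, and their fold changes with TMM factors were -0.23, -0.08 and 1.27 (adjusted p = 0.851, 0.945 and 0.202). On the reference gene scale each of the 3 rose, by 3.49, 3.66 and 4.73. ZBTB32 had 12 counts in CTRL replicate 3 and 0 elsewhere, and ZBTB46 had 2 counts in shALDH1A1 and 39 in CTRL.

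ZBTB22, a gene of the MHC region on chromosome 6, fell with TMM factors. It had 1, 2, 0 and 0 counts in shALDH1A1 and 30, 2, 55 and 21 in CTRL. Its fold change was -2.95 (standard error 0.89, adjusted p = 0.0121) with TMM factors and -0.04 (adjusted p = 0.979) on the reference gene scale. The call was lost without shALDH1A1 replicate 1, 3 or 4, with an adjusted p of up to 0.111.

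Of the members with ties to telomeres 0 of 2 tested fell (33% of all tested genes) or rose (2.6%) with TMM factors in edgeR. At an unadjusted p under 0.05, 0 were lower (41.6% of all tested genes) or higher (7.46%). With DESeq2 0 of 3 fell (49.2%) or rose (9.71%). ZBTB10, which binds variant telomere repeats, had 0, 8, 2 and 7 counts in shALDH1A1 and 74, 5, 68 and 22 in CTRL. ZBTB40 had 4, 6, 0 and 13 counts in shALDH1A1 and 34, 5, 200 and 14 in CTRL. Their groups overlapped, with fold changes of -1.07 and -1.08 with TMM factors (adjusted p = 0.304 and 0.306) and of 2.10 and 2.58 on the reference gene scale. ZBTB48 (TZAP), which binds telomeres and limits their length, had 3 counts in shALDH1A1, all in replicate 3, and 139 in CTRL, and was not tested.

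The members with the most counts in shALDH1A1 were of another kind. ZBTB8B, ZBTB37, ZBTB25 and ZBTB8A led in total counts, and each of them holds a match to the Alu repeat in its 3′ untranslated region. Alu is a short primate repeat with a very large number of near-identical copies in genes, so reads that hold it are hard to assign to 1 gene and the counts of such members are uncertain. The match was searched with the Alu-derived part of the BC200 RNA in the longest coding transcript of each gene. It covers 1056 bases in ZBTB8B, 634 in ZBTB25, 633 in ZBTB8A, 538 in ZBTB37, 297 in ZBTB24, 224 in ZBTB3 and 111 in ZBTB43, all of them in the 3′ untranslated region, and 0 bases in the other 35 members. These 7 are 16.7% of the members, and 3670 of 17951 genes with a transcript (20.4%) have such a match.

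ZBTB8B lies on chromosome 1 (32930673 to 32962287, GRCh37, plus strand). It had 6180, 3207, 4490 and 1063 counts in shALDH1A1 and 59, 593, 40 and 26 in CTRL. CTRL replicate 2 sat near the shALDH1A1 libraries, at 457 TPM against 700 to 1110 TPM, while CTRL replicates 1, 3 and 4 sat at 1.03 to 2.31 TPM. With TMM factors ZBTB8B had 3.46 (log2 fold change, standard error 2.06, adjusted p = 0.166), and without CTRL replicate 2 it rose by 8.30 (standard error 0.99, adjusted p = 1.43e-06). On the reference gene scale ZBTB8B rose by 6.51 (adjusted p = 0.0450).

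ZBTB37 had 1168, 965, 753 and 879 counts in shALDH1A1 and 65, 222, 155 and 45 in CTRL. ZBTB25 had 943, 896, 976 and 248 counts in shALDH1A1 and 46, 141, 108 and 15 in CTRL. ZBTB8A had 359, 179, 267 and 92 counts in shALDH1A1 and 47, 61, 84 and 10 in CTRL. In all 3 genes CTRL replicate 2 was the highest CTRL library once scaled, at 69.7 TPM for ZBTB37, 136 TPM for ZBTB25 and 87.6 TPM for ZBTB8A. Their fold changes with TMM factors were 2.74, 3.27 and 2.54 (standard errors 1.61, 1.65 and 1.35, adjusted p = 0.159, 0.1103 and 0.127). Without CTRL replicate 2 all 3 rose, by 5.50, 5.94 and 4.46, and they rose on the reference gene scale too, by 5.97, 6.04 and 5.66. ZBTB25 overlaps ZBTB1 and MTHFD1 on the opposite strand, and ZBTB8A overlaps ZBTB8OS.

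ZBTB43 had 54, 52, 32 and 57 counts in shALDH1A1 and 18, 10, 86 and 3 in CTRL, and ZBTB3 had 40, 22, 43 and 17 in shALDH1A1 and 6, 17, 28 and 3 in CTRL. ZBTB43 and ZBTB37 were the 2 tested members that lay higher without overlap in TMM-scaled CPM (counts per library size, 1.88% of all tested genes did). There were 9 that lay lower without overlap (36% of all tested genes), the 7 called members and ZBTB11 and ZBTB44. ZBTB8OS, without an Alu match, had 138, 109, 114 and 32 counts in shALDH1A1 and 70, 16, 65 and 69 in CTRL. It was not called with TMM factors (2.44, adjusted p = 0.0864), and it rose without CTRL replicate 2 (2.16, adjusted p = 0.00899) and on the reference gene scale (5.69, adjusted p = 0.0131). ZBTB8A and ZBTB8B also share a readthrough annotation with ZBTB8OS (ENSG00000254553), so counts in this cluster on chromosome 1 may be split among them.

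Split by the Alu match, 0 of 7 members with a match and 7 of 20 tested members without one fell with TMM factors. Of all tested genes 8.62% with a match and 45.7% without one fell. In the other direction 0 members of either kind rose, against 5.1% and 1.21% of all tested genes. Without CTRL replicate 2, 6 of the 7 members with a match rose, ZBTB24 being the one that did not, and 45.6% of all tested genes with a match rose. The median log2 fold change of members was 2.54 with a match and -1.10 without one with TMM factors, and 5.80 and 2.11 on the reference gene scale. The shares of all tested genes differ in the same way, so the split is not particular to the family.

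**Figure D3:**
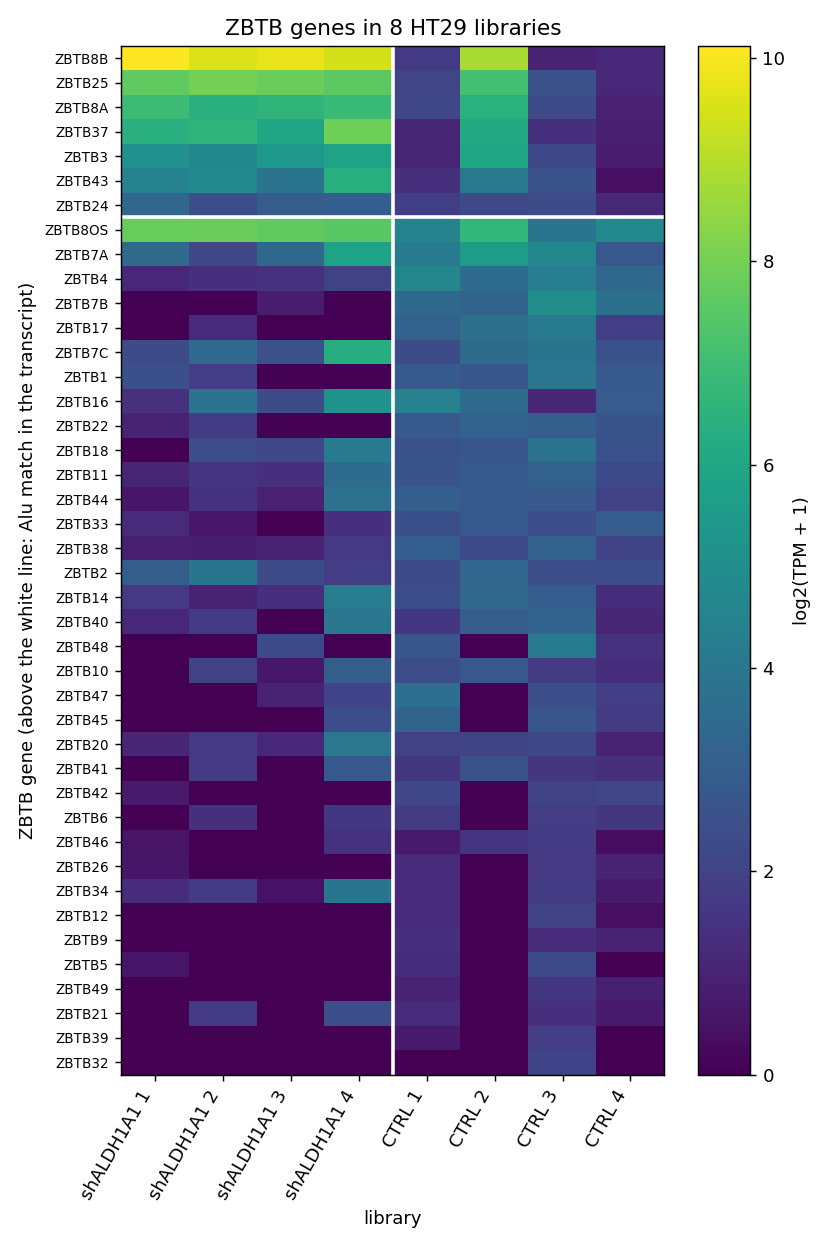
Colour gives the level, as log2(TPM + 1), of the 42 ZBTB genes (rows) in the 8 libraries (columns); genes above the horizontal white line have an Alu match and the vertical white line parts shALDH1A1 from CTRL. ZBTB8B stands at 700 to 1110 TPM in shALDH1A1 and 457 TPM in CTRL replicate 2, and ZBTB7B at 8.64 to 30.7 TPM in CTRL against 0 to 0.74 TPM in shALDH1A1.

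Levels per length give the order of the members within a group. In CTRL the highest medians over 4 libraries belonged to ZBTB8OS (24.8 TPM), ZBTB7A (21.0 TPM), ZBTB4 (14.8 TPM), ZBTB7B (11.0 TPM) and ZBTB17 (10.2 TPM), and neighbours in this order overlapped in their ranges. In shALDH1A1 the order was ZBTB8B (830 TPM), ZBTB25 (214 TPM), ZBTB8OS (210 TPM), ZBTB8A (106 TPM) and ZBTB37 (90.1 TPM), where the range of ZBTB8B (700 to 1110 TPM) lay above that of ZBTB25 (191 to 256 TPM) and the range of ZBTB8OS (181 to 224 TPM) above that of ZBTB8A (80.6 to 121 TPM), and the other neighbours overlapped. The 33 members other than ZBTB7B, ZBTB8OS and those with an Alu match had medians of 0 to 2.54 TPM across shALDH1A1 libraries and of 2 to 4.32 TPM across CTRL libraries. Of these 33, between 12 and 18 had 0 TPM in a shALDH1A1 library, 14 in CTRL replicate 2 and 0 to 3 in CTRL replicates 1, 3 and 4.

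Counted together, the 42 genes took 0.472, 0.401, 0.403 and 0.493% of the gene counts in shALDH1A1 and 0.104, 0.401, 0.103 and 0.0609% in CTRL. The lowest shALDH1A1 share (0.4014%, replicate 2) exceeded the highest CTRL share (0.4009%, replicate 2) by less than 1 part in 100, and the other CTRL libraries were far below. The mean share was 0.442 ± 0.0469% in shALDH1A1 and 0.167 ± 0.157% in CTRL (SD, n = 4, exact permutation p = 0.0286). Without the 7 members with an Alu match the order turned, to 0.024 ± 0.0194% in shALDH1A1 and 0.0694 ± 0.0253% in CTRL (SD, n = 4, exact permutation p = 0.0571).

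What the family counts consisted of differed as much. Members with an Alu match made up 97.3, 95.4, 96.95 and 89.3% of the family counts in shALDH1A1, and 11.2, 89.6, 13.3 and 11.1% in CTRL (exact permutation p = 0.0571). CTRL replicate 2 again fell within the shALDH1A1 range. ZBTB8B alone made up 40.2 to 68.6% in shALDH1A1, 50.8% in CTRL replicate 2 and 0.931 to 2.52% in CTRL replicates 1, 3 and 4 (exact permutation p = 0.0571).

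ZBTB7B made up 2.82, 0.257, 7.55 and 6.89% of the family counts in CTRL and 0, 0, 0.0147 and 0% in shALDH1A1. The groups did not overlap (exact permutation p = 0.0286). The 95% exact intervals ran from 0.053 to 0.749% in CTRL replicate 2 and from 0.000373 to 0.0821% in shALDH1A1 replicate 3, so these nearest libraries overlap in counting error. By the floor of 3 counts, the counts of 0 allow a share of up to 0.0333, 0.0537 and 0.114% in shALDH1A1 replicates 1, 2 and 4, and the exact intervals reach 0.041, 0.066 and 0.1395%. With the Alu members left out of the total, the share was 3.18, 2.46, 8.71 and 7.74% in CTRL and 0, 0, 0.483 and 0% in shALDH1A1 (exact permutation p = 0.0286).

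**Figure D4:**
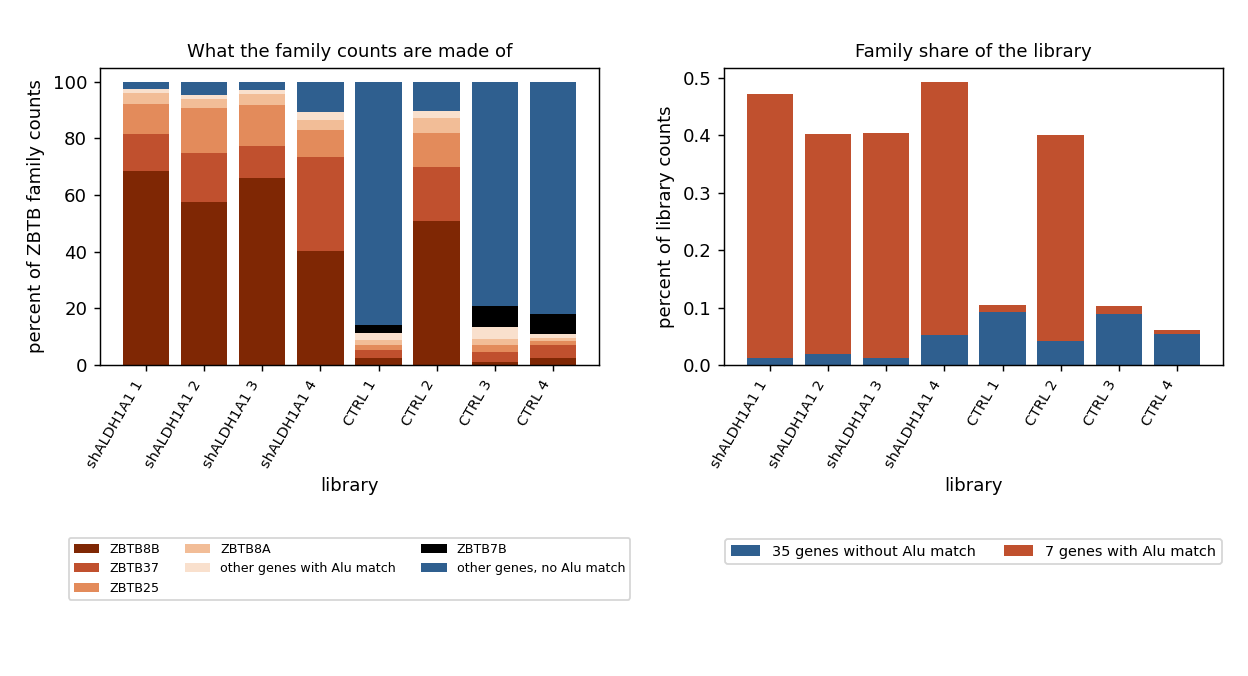
Left, the percent of ZBTB family counts (y) that each member or group of members took in each library (x); right, the percent of all library counts (y) that the family took, split into 7 genes with and 35 without an Alu match. Alu match genes fill 89.3 to 97.3% of the family counts in shALDH1A1 and 89.6% in CTRL replicate 2, against 11.1 to 13.3% in CTRL replicates 1, 3 and 4.

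Tested members not described so far are ZBTB11, ZBTB41 and ZBTB44, with fold changes of -1.11, -1.19 and -1.62 with TMM factors (adjusted p = 0.241, 0.249 and 0.134) and of 2.33, 2.11 and 2.11 on the reference gene scale. The 15 members that were not tested had 0 to 21 counts summed over the shALDH1A1 libraries and 12 to 223 over CTRL. Among all 42 members, 15 had at most 3 counts in shALDH1A1, ZBTB7B, ZBTB17 and ZBTB22 included, and 5 had 0, namely ZBTB9, ZBTB12, ZBTB32, ZBTB39 and ZBTB49. These 5 had 12 to 55 counts summed over CTRL. With the floor set at 3 counts for the shALDH1A1 group as a whole, the ratio of CTRL to shALDH1A1 was at least 0.913 (ZBTB32) to 4.19 (ZBTB39) with TMM factors and at least 0.11 to 0.504 on the reference gene scale, so a fall was not detectable on the second scale at this depth. DESeq2 gave all 42 members a fold change and 3 of them (ZBTB12, ZBTB32 and ZBTB49) no adjusted p. With DESeq2 12 members fell (49.2% of all genes with an adjusted p) and 6 rose (9.71%).

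The table splits each gene over its transcripts, and in some members the leading transcript differed between libraries. These members were chosen after their values were seen, so the values are a description. For ZBTB16, 1 of 8 transcripts took 90.3 to 100% of the gene's counts in shALDH1A1 and 85.7% in CTRL replicate 2, and 0% in CTRL replicates 1, 3 and 4. For ZBTB2, 1 of 3 transcripts took 100% in shALDH1A1 and in CTRL replicate 2, and 0% in the other CTRL libraries. For ZBTB7A, 1 of 4 transcripts took 100% in the same 5 libraries and 43.7, 69.2 and 70.3% in CTRL replicates 1, 3 and 4. Libraries in which these splits were seen differ in depth and in Alu share, and the part of either was not tested.

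BTB zinc finger genes under other symbols were compared beside the family. Of 8 such genes 4 were tested and 1 fell with TMM factors (25%, against 33% of all tested genes). On the reference gene scale 0 fell and 1 rose (5.44 and 40.9% of all tested genes). PATZ1, the one that fell, had 0, 0, 0 and 3 counts in shALDH1A1 and 55, 5, 156 and 35 in CTRL, and fell by 4.13 on the log2 scale (standard error 1.04, adjusted p = 0.00363) with TMM factors, against -0.89 (adjusted p = 0.586) on the reference gene scale. BCL6, the repressor that germinal center B cells depend on, had 1, 2, 1 and 7 counts in shALDH1A1 and 119, 5, 73 and 11 in CTRL, and did not pass (-2.02, adjusted p = 0.0654). HIC1 and ZNF131 did not pass either, at -1.72 and -0.85 (adjusted p = 0.129 and 0.367). On the reference gene scale all 3 turned sign, to 1.74 for BCL6, 1.18 for HIC1 and 2.73 for ZNF131, which rose there (adjusted p = 0.0417). Without CTRL replicate 2, 3 of 5 tested genes fell, where 60.4% of all tested genes did.

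Of the corepressors and ubiquitin ligase parts that BTB domains bind, 6 of 13 tested genes fell with TMM factors (46.2%, against 33% of all tested genes). Their median log2 fold change was -1.92, against -1.44 over all tested genes. On the reference gene scale 1 fell (7.69%, against 5.44% of all tested genes) and 4 rose (30.8%, against 40.9%). HDAC5 had 0 counts in all shALDH1A1 libraries and 93, 3, 160 and 34 in CTRL (adjusted p = 0.000725), and it is the gene that also fell on the reference gene scale (adjusted p = 0.0166). HDAC3, the deacetylase of the NCOR complex, had 0, 0, 1 and 0 counts in shALDH1A1 and 57, 6, 149 and 29 in CTRL (-5.42, standard error 1.18, adjusted p = 0.00116, and -2.98, adjusted p = 0.0594, on the reference gene scale). SIN3A and HDAC1, of the SIN3 complex, fell by 3.30 and 2.97 on the log2 scale (adjusted p = 0.0118 and 0.0302), and neither was called on the reference gene scale (-0.66 and -0.61). RBX1 and GPS2 were the other 2 that fell. Without CTRL replicate 1 the count was 3 of 13 (24.6% of all tested genes), and without CTRL replicate 2 it was 10 of 15 (60.4%).

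SUMO2, a small protein that is attached to other proteins, had 176, 118, 153 and 33 counts in shALDH1A1 and 559, 42, 257 and 271 in CTRL. It did not pass with TMM factors (0.75, standard error 1.14, adjusted p = 0.576), and on the reference gene scale it rose by 4.15 (adjusted p = 0.0243).

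LDHA, the lactate dehydrogenase subunit that the study set downstream of ZBTB7B, had 5, 36, 19 and 21 counts in shALDH1A1 and 827, 8, 278 and 174 in CTRL. It did not pass on either scale (-1.35, standard error 1.06, adjusted p = 0.281 with TMM factors, and 1.91, adjusted p = 0.162, on the reference gene scale). LDHA fell with median-of-ratios factors (-2.52, adjusted p = 0.0251), with total counts (-2.94, adjusted p = 0.0231), with DESeq2 (-2.58, adjusted p = 0.0116) and without a filter (-2.31, adjusted p = 0.0391). It also fell without CTRL replicate 2 (-2.51, adjusted p = 0.00316) and without CTRL replicate 4 (-2.37, adjusted p = 0.0381), and over all fits without 1 library its adjusted p ran from 0.00316 to 0.603. The log2 ratio of LDHA to ZBTB7B was 3.46, 6.19, 3.70 and 5.43 in shALDH1A1 and 3.60, 1.28, -0.21 and 1.31 in CTRL, so CTRL replicate 1 lay within the shALDH1A1 range (exact permutation p = 0.0571). CD274, which encodes PD-L1, had 0 counts in shALDH1A1 and 5, 0, 9 and 2 in CTRL and was not tested.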

How the data were processed

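RNA of samples labelled HT29 was sequenced in 4 shALDH1A1 and 4 CTRL libraries. Per the study's methods, the authors used CASAVA 1.6, FASTQC 0.11.5, HISAT on hg19 and RSEM, whereas the submitters' processing notes name Bowtie2, BWA and GRCh38.p13, and this conflict could not be settled. The authors deposited expected counts, not normalized, and TPM for each of 84798 transcripts. Of the non-zero deposited expected counts 64.7% were not whole at a tolerance of 0.001.

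Expected counts were summed per gene and rounded, and TPM values were summed. edgeR 4.0.16 (genes kept by filterByExpr at 10 counts and a total of 15, TMM factors, quasi-likelihood test, two-sided, Benjamini-Hochberg over all 7971 tested genes) was run in R 4.3.3. Standard errors were taken as the size of the log2 fold change divided by the root of F. The common dispersion was 0.853. DESeq2 1.42.0, limma 3.58.1 on log2(TPM + 1), other scalings, no filter, a replicate block and leaving out libraries were alternatives. Shares and ratios were compared with exact two-sided permutation tests, and shares have Clopper-Pearson intervals.

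Alu matches came from blastn 2.17.0 (expect value 1e-10) of the first 120 bases of BCYRN1 on GENCODE transcripts of GRCh37, with over 50 bases counted as a match. Coordinates of genes are those of GRCh37.

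Named in the text are the ZBTB7 genes, members called higher, up to 12 members called lower, the 5 members with the most counts in shALDH1A1, tested members of the role lists, up to 4 genes of the other lists by p, and ALDH1A1, LDHA, CD274 and SUMO2. A further gene of the rule is not reported here. The members, lists and tests were chosen with earlier results of these data known. Statistics were tested on simulated counts first.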

Additional observations from a re-analysis of the deposited data

Results flagged for a closer look

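Single libraries far from the rest of their group were found in 9 of 60 groups checked (15%). Chance gives about 5% for independent, normally spread values. The groups here are neither, so 15% is not to be read as an excess. Values are log2(TMM-scaled CPM + 1) unless said otherwise. In CTRL replicate 2, ZBTB8B stood at 10.9 against 2.74 to 3.74 in the other CTRL libraries, ZBTB37 at 9.45 against 3.82 to 4.52, and the family took 0.401% of the library against 0.0609 to 0.104%. This library also has the fewest counts and the highest Alu share of its group, and the part of either was not tested. In CTRL replicate 4, ZBTB33 stood at 4.81 against 3.33 to 3.39.

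A lone read set apart ZBTB7B in shALDH1A1 replicate 3 (1.6 against 0, and 0.0147% of the family counts against 0%) and ZBTB17 in replicate 2 (1.44 against 0). With 0 in the rest of a group any other value is flagged, and both ZBTB7B flags rest on the same read. In shALDH1A1 replicate 1, ZBTB11 stood at 1.79 against 2.97 to 3.2, and ZBTB18 at 0 against 3.17 to 3.49.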

How the results depend on the processing

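Members that fell numbered 7, and 1 on the reference gene scale, 12 with DESeq2, 12 without a filter, 4 with limma on log2(TPM + 0.1), 0 at the study's thresholds, 11 without CTRL replicates 2 and 3 together (chosen after seeing the data), and 2 to 11 without 1 library. Members that rose numbered 0, and 5 with median-of-ratios factors, 13 on the reference gene scale, 6 with DESeq2, 4 without a filter, 6 with limma at either pseudocount, 7 without CTRL replicates 2 and 3, and 0 to 7 without 1 library. Of all genes tested in these fits, 2.6% rose with TMM factors, 11.3% with median-of-ratios factors, 40.9% on the reference gene scale, 9.71% with DESeq2, 7.01% without a filter, 9.12 and 8.25% with limma, 17% without CTRL replicates 2 and 3, 12.9% with the replicate block and 0.628 to 17.3% without 1 library. With the replicate block, which has no basis in the labels, 4 members fell and 6 rose. Deviations of same-numbered libraries correlated at -0.347, -0.0673, -0.176 and 0.146 across genes, so the numbers were not taken as pairs. Other BTB zinc finger genes that fell numbered 1, and 3 with median-of-ratios factors, 3 with total counts, 0 on the reference gene scale, 5 with DESeq2, 2 without a filter, 2 with limma on log2(TPM + 0.1) and 1 to 3 without 1 library. Corepressor genes that fell numbered 6, and 1 on the reference gene scale, 10 with DESeq2, 10 without a filter and 3 to 10 without 1 library. All genes that fell numbered 2627, and 4192 with median-of-ratios factors, 4145 with total counts, 434 on the reference gene scale, 6949 with DESeq2, 6848 without a filter, 4301 and 4175 with limma (pseudocounts 1 and 0.1) and 2025 to 5996 without 1 library. The cause of these shifts was not tested.

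The family share was 0.275 percentage points higher in shALDH1A1, 0.272 without ZBTB8OS (exact permutation p = 0.0571), -0.0454 without the Alu members (p = 0.0571, exact permutation, chosen after seeing the data) and 0.240 to 0.353 without 1 library. The ZBTB7B share of the family differed by -4.38 percentage points, from -5.75 to -3.32 without 1 library, with an exact p of 0.125 when paired by replicate number as a replicate block, the smallest that 4 pairs allow. The ZBTB7B to ZBTB7A log2 ratio differed by -3.87, from -4.52 to -3.33 without 1 library and with an exact p of 0.125 in the replicate block. Leaving out 1 shALDH1A1 library gave an exact permutation p of 0.0571 for these 3 values and leaving out 1 CTRL library 0.0286. The log2 fold change of ZBTB7B kept its sign and an adjusted p under 0.05 in each alternative fit. Its edgeR adjusted p of 0.00116 with TMM factors misses the 0.001 that the study's methods state.

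Log2 fold changes of single members that turned sign did so mostly on the reference gene scale, to 1.34 for ZBTB1, 2.10 for ZBTB10, 2.33 for ZBTB11, 2.89 for ZBTB14, 3.49 for ZBTB16, 2.05 for ZBTB18, 3.66 for ZBTB20, 0.40 for ZBTB33, 0.63 for ZBTB38, 2.58 for ZBTB40, 2.11 for ZBTB41, 2.11 for ZBTB44 and 2.89 for ZBTB7A. ZBTB16 turned to 0.22 and 0.26 with limma and 0.13 with the replicate block, and ran from -1.08 to 0.29 without 1 library. ZBTB20 turned to 0.15 and 0.090 with limma and ran from -0.60 to 0.37 without 1 library. ZBTB2 turned to -0.12 with median-of-ratios factors, -0.97 with total counts and -0.16 with DESeq2, ZBTB7C to -0.22, -0.21 and -0.27 in the same order, and ZBTB24 to -0.43 with total counts. None of these had been called with TMM factors except ZBTB1, ZBTB33 and ZBTB38. Depth limits what can be seen, since CTRL replicate 2 held 291260 counts and 15 members had 3 or fewer counts in shALDH1A1.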

Other observations

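The primer pair that the study lists for human ZBTB7B was searched, as letters, in the GENCODE transcripts of ZBTB7B and of ALDH1A1. The forward primer cctcctcagttgcaggattaaag (23 bases) had no exact match in any of 5 ZBTB7B transcripts, matched 6 of 7 ALDH1A1 transcripts on the opposite strand (positions 173 to 195 of ALDH1A1-201), and is letter for letter the reverse primer listed for ALDH1A1. The reverse primer agcttaggtaggccatcaggt (21 bases) matched 4 of 5 ZBTB7B transcripts on the opposite strand (positions 1498 to 1518 of ZBTB7B-203) and 0 of 7 ALDH1A1 transcripts. No RNA-seq value rests on these primers.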
